A study of Gallus gallus with 9 samples.

Results

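Hedgehog signalling carries a secreted lipid-modified ligand from one cell to the transcription factors of the GLI family in another. Without ligand the receptor PTCH1 keeps the membrane protein SMO inactive, SUFU holds the GLI factors in check and GLI3 is cut to a repressor, whereas ligand binding frees SMO at the primary cilium and lets GLI proteins turn on their targets, of which GLI1, PTCH1 and HHIP are the usual readouts. The pathway restrains fat cell formation in mice, and 20(S)-hydroxycholesterol (20(S)) is known from mammalian cells to bind SMO and activate it, so its genes bear on hen preadipocytes that were given this oxysterol.

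The 8 genes described here are the releasing protein DISP1, the receptor PTCH1, the ligand-binding inhibitor HHIP, the transducer SMO, the inhibitor SUFU and the transcription factors GLI1, GLI2 and GLI3. They were found by gene symbol in the platform annotation and make up 8 of 13009 genes with a single symbol and 15 of 38439 probe sets on Affymetrix chicken arrays. Where a gene has several probe sets, as 5 of the 8 do, the brightest on average across the 9 arrays was taken, and the others are numbered from it by falling mean.

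Preadipocytes came from abdominal fat of 3 laying hens of the Lohman strain, 19 wk old, and were grown to confluence before treatment, and control cells stayed in DMEM with 10% fetal bovine serum. For 96 hr they received no treatment (control), DMIOA, or DMIOA with 5 μM 20(S). DMIOA is an adipogenic cocktail of dexamethasone at 500 nM, the phosphodiesterase inhibitor isobutylmethylxanthine at 0.5 mM, insulin at 20 μg/mL and oleic acid at 300 μM. Titles assign 3 arrays to each of the 3 groups and call them biological replicates, but the hen behind each array is not given in the sources used here. The p-values therefore measure only the spread between these arrays, whose number limits the precision. Values are log2 intensities after GCRMA, a method that corrects background, normalizes the arrays together and draws dim probe sets to a common floor. The medians of the 9 arrays lay between 2.11 and 2.14. A value at or below the median of its own array is called at the array floor, and a value under 4 is called dim.

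The arrays did not sort by title. Whether titles were exchanged between arrays was not tested, and every difference between groups given here holds only if the deposited titles are right. Across all probe sets, which are not independent replicates, correlations ran from 0.994 to 0.997 within the set of control 1, control 2 and DMIOA 1 (set A), from 0.993 to 0.997 within DMIOA 2, DMIOA+20(S) 1 and DMIOA+20(S) 2 (set B), and from 0.993 to 0.996 within the 3 arrays titled replicate 3 (set C). Between A and B they were 0.970 to 0.976 and between A and C 0.971 to 0.976. Arrays of one title correlated with each other at 0.976 to 0.997 for control, 0.971 to 0.993 for DMIOA and 0.991 to 0.995 for DMIOA+20(S). Sets B and C correlated at 0.989 to 0.995. Sets A, B and C are groupings by likeness and not treatments, so values in them are shown array by array with no mean and no test. The exception is set C, whose arrays are also set apart by their titles. These replicate 3 arrays are compared with replicates 1 and 2 further below, with means and a test. Arrays titled control lie in A, A and C, those titled DMIOA in A, B and C, and those titled DMIOA+20(S) in B, B and C. Of the 10 stromal markers of the labelled cell type, 8 were above log2 4 on all 9 arrays: COL1A1, a fibrillar collagen, read 13.80 to 14.11 and VIM, an intermediate filament of mesenchymal cells, 14.14 to 14.33, but DLK1 was at the array floor on all 9 arrays and PDGFRA on 8.

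DISP1, which releases hedgehog ligands from the cells that make them, varied the most among the 8 genes. It read 6.96 on control 1, 6.98 on control 2 and 6.93 on DMIOA 1, then 10.30 on DMIOA 2, 10.21 on DMIOA+20(S) 1 and 10.06 on DMIOA+20(S) 2, and 10.08, 9.99 and 10.03 on control 3, DMIOA 3 and DMIOA+20(S) 3. The 3 arrays of set A were low and the other 6 were high, with a gap of 3.01 between the highest of the former and the lowest of the latter and a 10.3-fold range in all. Within each title except DMIOA+20(S) the values therefore lay on both sides of the gap. The other probe sets of DISP1 also read lowest in set A. The second probe set read 2.61 to 3.07 in A, 4.77 to 5.87 in B and 4.15 to 5.74 in C, and the third read 1.83 to 2.81, 3.56 to 3.94 and 2.84 to 3.51, with dim values on all 9 arrays and 2 of them at the array floor.

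**Figure D1:**
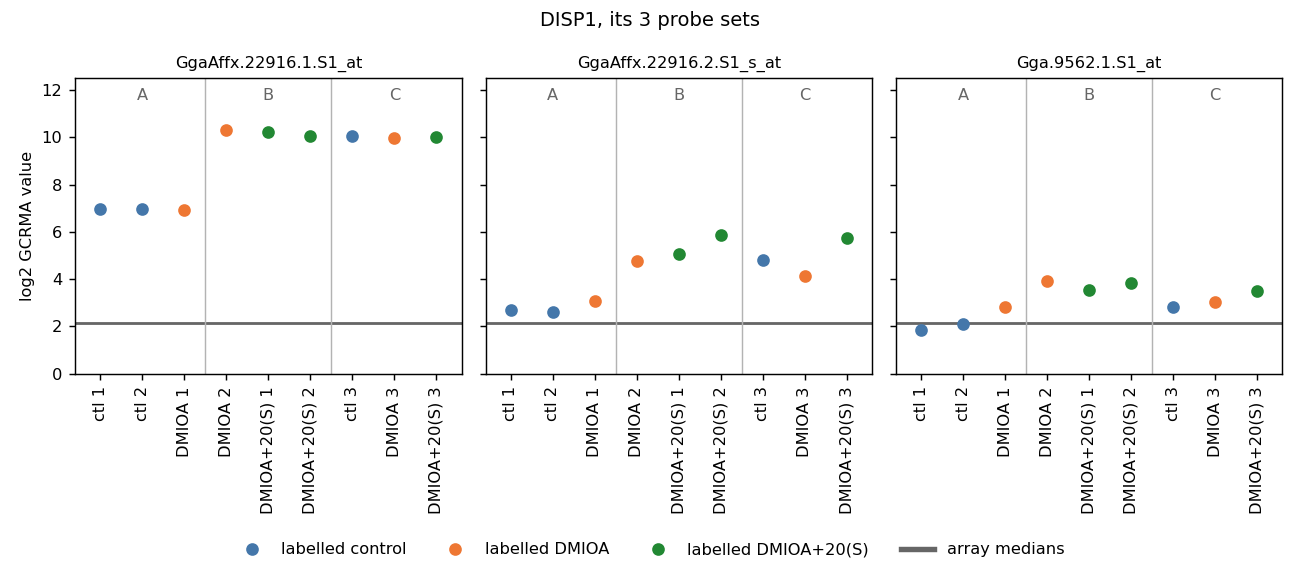
Log2 GCRMA value (y axis) of the 3 probe sets of DISP1 on each of the 9 arrays (x axis), coloured by title and ordered by sets A, B and C; the grey band is the range of the array medians. On the first probe set the arrays of A sit at 6.93 to 6.98 and the other 6 at 9.99 to 10.30, and on the other panels A is also lowest.

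By title, DISP1 measured 8.01 ± 1.80 (log2, SD, n = 3) on arrays titled control, 9.07 ± 1.86 (SD, n = 3) on DMIOA and 10.10 ± 0.10 (SD, n = 3) on DMIOA+20(S). In limma over all 9 arrays and 38439 probe sets DMIOA lay above control by 1.07 on the log2 scale, with a standard error of 1.05 and an adjusted p = 0.994. DMIOA+20(S) lay above DMIOA by 1.03 with the same standard error and an adjusted p = 0.977. For DMIOA+20(S) against control the difference was 2.09, with a 95% interval from -0.31 to 4.50 and an adjusted p = 0.502 from limma. None of these differences passed the test against the spread between arrays of one title. With arrays left out one at a time the difference of DMIOA from control ran from 0.45 without DMIOA 2 to 2.14 without DMIOA 1, and that of DMIOA+20(S) from DMIOA from -0.04 without DMIOA 1 to 1.64 without DMIOA 2. That of DMIOA+20(S) from control ran from 1.57 without control 1 to 3.13 without control 3 (adjusted p = 0.139 from limma in the last). The other DISP1 probe sets were singled out after their values were seen. On the third, DMIOA lay above control by 0.997, with an unadjusted p = 0.0176 and an adjusted p = 0.994 from limma. On the second, DMIOA+20(S) lay above DMIOA by 1.56, with an unadjusted p = 0.0416 and an adjusted p = 0.977 from limma. Its difference of DMIOA+20(S) from control was 2.18 (95% interval 0.70 to 3.66), with an unadjusted p = 0.0093 from limma. That of the third probe set was 1.38 (95% interval 0.61 to 2.15), with an unadjusted p = 0.0033 from limma. Each had an adjusted p = 0.492 from limma, and 10.1% of all probe sets had an unadjusted p under 0.05 in that comparison.

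PTCH1, the receptor for hedgehog ligands and itself a target of the pathway, read 5.72, 5.65 and 5.49 on control 1, control 2 and DMIOA 1. It read 5.44, 5.41 and 5.33 on DMIOA 2, DMIOA+20(S) 1 and DMIOA+20(S) 2, and 5.59, 5.88 and 6.08 on the replicate 3 arrays of control, DMIOA and DMIOA+20(S). Set B was lowest and did not overlap with A or C, while A and C overlapped. The whole range of PTCH1 was 1.68-fold. By title it measured 5.65 ± 0.07, 5.60 ± 0.24 and 5.61 ± 0.41 (SD, n = 3 each) for control, DMIOA and DMIOA+20(S), and the 95% interval of the difference from limma was -0.46 to 0.48 for DMIOA+20(S) against DMIOA. Another PTCH1 probe set was at the array floor on all 9 arrays.

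HHIP, a membrane protein that binds hedgehog ligands and keeps them from PTCH1, was at the array floor on 7 of 9 arrays. Control 1, 2 and 3 gave 2.15, 1.63 and 1.60, whereas DMIOA gave 1.97, 1.45 and 2.40 in the same order. DMIOA+20(S) gave 1.87, 1.78 and 1.81. Control 1 and DMIOA 3 were above their medians. Its second probe set was at the floor on all 9. Values at the floor were not ranked, and all 3 titles overlapped, with a difference of -0.12 between DMIOA+20(S) and DMIOA (95% interval -0.67 to 0.43 in limma).

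SMO, the transducer that PTCH1 inhibits, was well above the floor on every array. It read 6.52 on control 1, 6.55 on control 2 and 6.19 on DMIOA 1. Values were 7.24, 7.23 and 6.78 on DMIOA 2, DMIOA+20(S) 1 and DMIOA+20(S) 2, and 6.89, 7.02 and 6.63 on the replicate 3 arrays of control, DMIOA and DMIOA+20(S). Set A was lowest, with a gap of 0.08 to the next array, and the titles overlapped. DMIOA+20(S) differed from DMIOA by 0.06 on the log2 scale, with a 95% interval from -0.58 to 0.70 and an adjusted p = 0.989 in limma.

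SUFU, which binds GLI proteins and holds them inactive, differed least among the 5 genes above log2 4, with a 1.31-fold range. It read 7.46, 7.35 and 7.45 in set A, 7.63, 7.67 and 7.75 in B and 7.72, 7.49 and 7.57 in C, in the array order used for SMO. Set A was again lowest, by a gap of 0.03. By title the means were 7.51 ± 0.19 for control, 7.52 ± 0.10 for DMIOA and 7.66 ± 0.09 for DMIOA+20(S) (SD, n = 3 each), and the 95% interval of DMIOA+20(S) against control was -0.11 to 0.42. Of the other 2 probe sets of SUFU, the second was dim (2.51 to 3.09) and the third was at the floor on all 9 arrays. On the second, set A (2.51 to 2.65) overlapped with C (2.58 to 2.87), and on the third it overlapped with B and C.

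GLI3, which acts mainly as the repressor of the family, read 5.77, 5.93 and 5.52 on control 1, control 2 and DMIOA 1. On DMIOA 2, DMIOA+20(S) 1 and DMIOA+20(S) 2 it read 7.61, 7.40 and 6.99, and on the replicate 3 arrays of control, DMIOA and DMIOA+20(S) 7.21, 7.18 and 6.73. Set A was low by a gap of 0.80 and B and C overlapped. By title GLI3 measured 6.30 ± 0.79 on control, 6.77 ± 1.10 on DMIOA and 7.04 ± 0.34 on DMIOA+20(S) (SD, n = 3 each). In limma DMIOA differed from control by 0.46 and DMIOA+20(S) from control by 0.74, each with a standard error of 0.57, and neither passed the test (adjusted p = 0.994 and 0.635). With arrays left out one at a time the former ran from 0.047 without DMIOA 2 to 1.09 without DMIOA 1, and the difference of DMIOA+20(S) from DMIOA ran from -0.35 without DMIOA 1 to 0.69 without DMIOA 2.

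GLI1, the activator whose own transcription is the common sign of an active pathway, stayed at the array floor on 6 of 9 arrays. Arrays titled control gave 1.90, 1.99 and 2.23 in order of replicate number, and those titled DMIOA gave 2.0, 2.12 and 2.13. DMIOA+20(S) gave 2.31, 2.05 and 1.94. The arrays above their medians were control 3, DMIOA 3 and DMIOA+20(S) 1, one of each title. All 3 titles overlapped, with means of 2.04 ± 0.17, 2.08 ± 0.07 and 2.10 ± 0.19 (SD, n = 3 each) for control, DMIOA and DMIOA+20(S). GLI2, the main activator downstream of SMO, was above every array median but dim on all 9 arrays. Its values were 3.66, 3.83 and 3.68 for the arrays titled control, in order of replicate number, 3.69, 3.47 and 3.33 for DMIOA, and 3.29, 3.89 and 3.66 for DMIOA+20(S), so that titles and sets overlapped. The log2 fold change of DMIOA+20(S) against DMIOA was 0.02 for GLI1 (95% interval -0.27 to 0.31) and 0.12 for GLI2 (95% interval -0.26 to 0.49) in limma. Near the floor GCRMA draws values together, so a difference in these transcripts may not have been detectable at this signal. The second GLI2 probe set was at the floor on all 9 arrays.

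**Figure D2:**
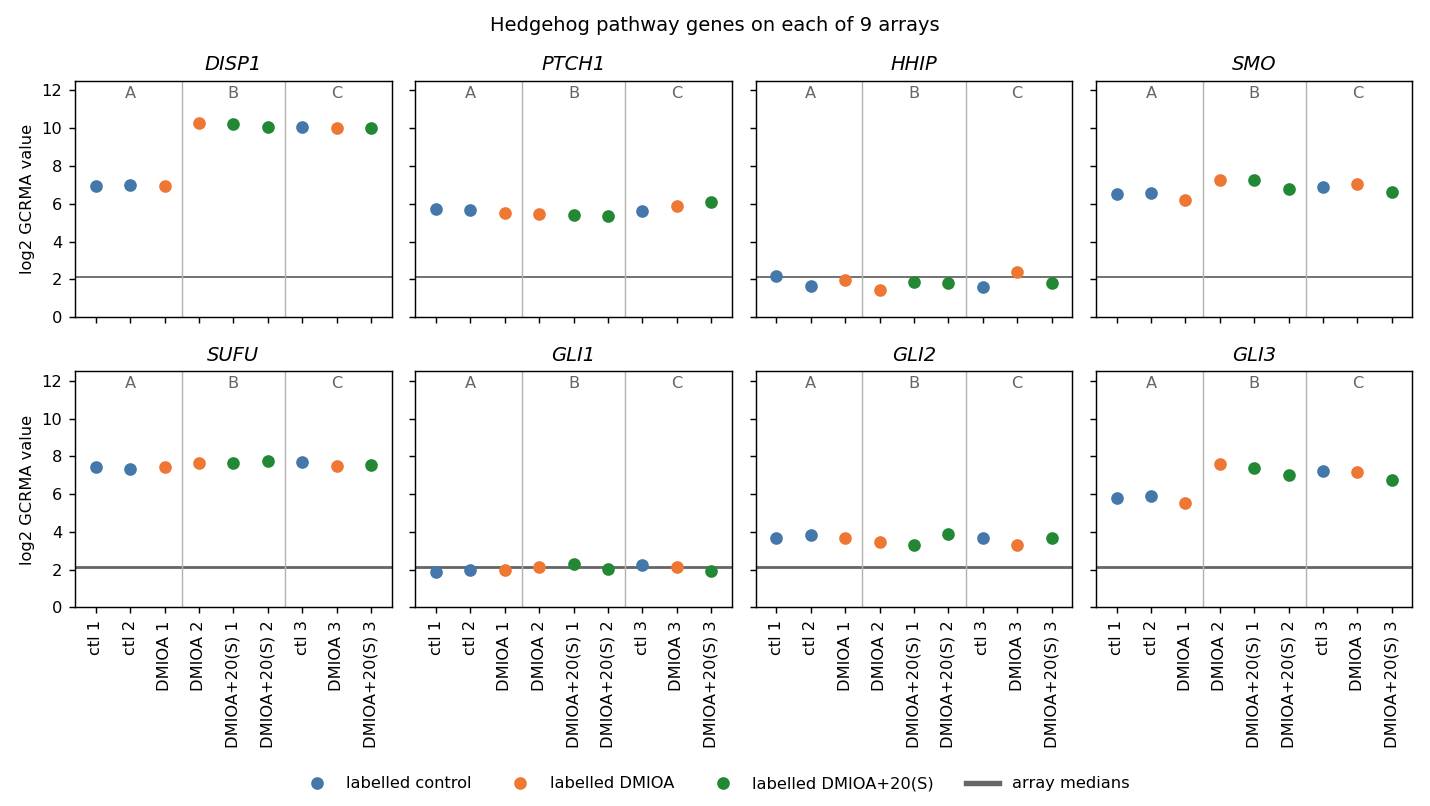
Log2 GCRMA value (y axis) of the chosen probe set of each of the 8 genes on the 9 arrays (x axis), coloured by title and ordered by sets A, B and C; the grey band is the range of the array medians (2.11 to 2.14). DISP1 and GLI3 are low in the first 3 arrays, whereas HHIP and GLI1 lie along the medians on most arrays.

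Across the 8 genes, limma called 0 in any comparison of titles at an adjusted p under 0.05 (Benjamini-Hochberg over all probe sets) and at least a 2-fold difference. Among all probe sets the share called was 0% for DMIOA against control, 0% for DMIOA+20(S) against DMIOA and 0.00520% for DMIOA+20(S) against control. The share at an unadjusted p under 0.05 in limma was 2.35%, 2.86% and 10.1% of all probe sets. It was 2%, 2.65% and 12.8% of all 13009 genes by their brightest probe sets, and held 0 of the 8 chosen ones in each case. Of the other probe sets of the 8 genes, only those of DISP1 were under it. These were the third for DMIOA against control, the second for DMIOA+20(S) against DMIOA, and both for DMIOA+20(S) against control. Adjusted p-values of the 8 from limma ran from 0.994 to 0.998, from 0.977 to 0.999 and from 0.502 to 0.978. The median log2 fold change of the 8 genes was 0.09, 0.09 and 0.11 in these comparisons, beside -0.01 in each over all 13009 genes. On its chosen probe set each of the 8 genes had overlapping titles in every comparison. On the second DISP1 probe set the DMIOA+20(S) arrays (5.05, 5.87 and 5.74) lay above every DMIOA array (3.07, 4.77 and 4.15). They also lay above every control array (2.68, 2.61 and 4.83). On the third, DMIOA+20(S) (3.56, 3.84 and 3.51) lay above control (1.83, 2.10 and 2.84) but overlapped with DMIOA. Shares over all genes refer to the brightest probe set of each. Over all genes 1.96% had every DMIOA array above every control array and 2.30% below, against 1.06% and 1.83% of the 6878 genes with a value of at least 4 on 3 or more arrays. For DMIOA+20(S) and DMIOA these shares were 3.11% above and 3.47% below over all genes, and 2.31% and 3.90% over the brighter genes. For DMIOA+20(S) and control they were 6.66% and 8.96%, and 6.85% and 12.3%. Each pair of these comparisons has one group of arrays in common.

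**Figure D3:**
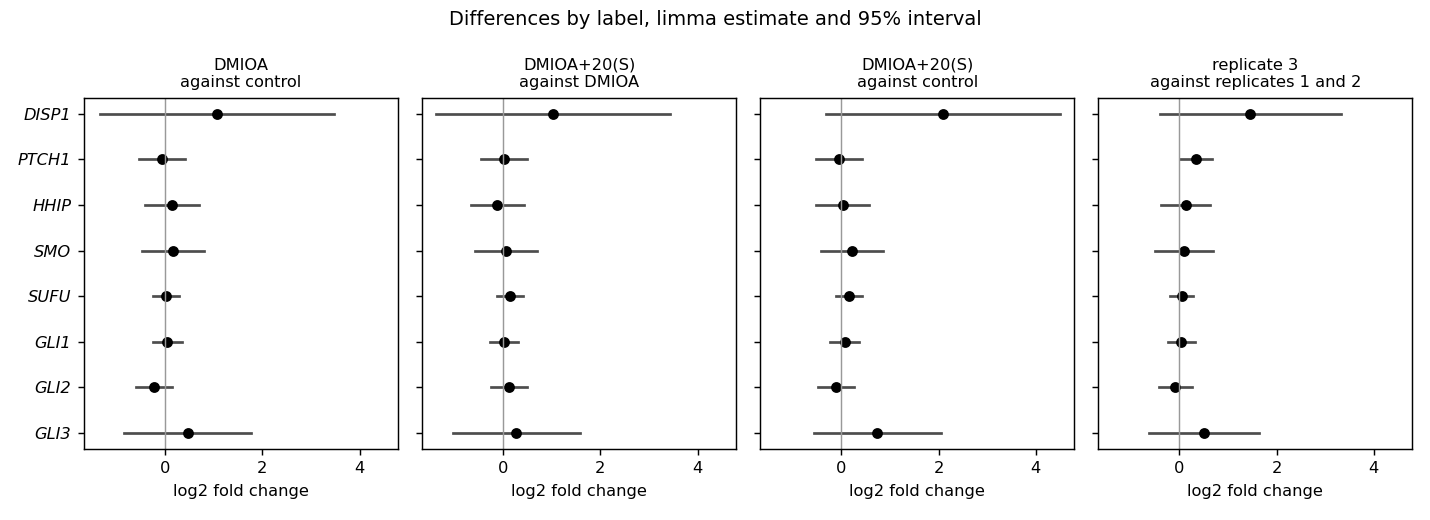
Log2 fold change (x axis) of each of the 8 genes (y axis) for 3 comparisons of titles and for replicate 3 against replicates 1 and 2; points are limma estimates over 9 arrays and lines 95% intervals. All intervals reach across 0 except that of PTCH1 in the last panel (0.02 to 0.67), and those of DISP1 are the widest.

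In the order of likeness, 4 of the 8 genes (DISP1, GLI3, SMO and SUFU) read lower on each array of set A than on any array of B and C, and 0 read higher. Of all 13009 genes, 15.9% were lower and 17.4% higher in this sense, and of the 6878 brighter genes 24.7% and 26.8%. PTCH1 was the only one of the 8 with every array of B below every array of C, as were 11.1% of all genes and 16.2% of the brighter ones, and 0 had B above C (9.26% and 12.8%). Within the sets GLI3 and SMO were lowest on DMIOA 1, DMIOA+20(S) 2 and DMIOA+20(S) 3, an order found in 18.1% of all and 28.4% of the brighter genes, and 0 of the 8 were highest on those arrays (9.31% and 11.9%). Summed levels of markers of other cells differed between the sets, in part through single genes. The smooth muscle list (ACTA2, MYH11, TAGLN and DES measured) had a summed level, as log2, of 10.74 to 10.95 in A, 8.72 to 8.81 in B and 7.96 to 8.40 in C, with DES at the array floor on all 9 arrays and MYH11 running the other way (3.77 to 4.49, 5.12 to 5.97 and 4.78 to 4.99). The summed level of 6 macrophage and leukocyte markers was 8.01 to 8.32 in A, 7.23 to 7.34 in B and 7.35 to 7.74 in C, and 4 of the 6 were higher on every array of A than on any other. For 5 endothelial markers it was 7.13 to 7.36, 5.24 to 5.72 and 5.74 to 6.59, with KDR and TEK at the array floor on all 9 arrays and TIE1 on 8. CDH5 (6.74 to 7.14 in A, 3.94 to 4.27 in B and 4.45 to 6.15 in C) carried this difference, while PECAM1 overlapped between the sets (3.57 to 5.05, 3.00 to 4.74 and 3.82 to 4.66). For 6 adipocyte markers the summed level was 10.66 to 10.88, 13.65 to 13.79 and 13.43 to 13.48, most of it from FABP4 (10.04 to 10.23, 13.60 to 13.73 and 13.39 to 13.42). PPARG read 8.93 to 9.30 in A, 8.24 to 9.0 in B and 7.95 to 8.61 in C, LPL overlapped between the sets, and CEBPA was at the floor on 7 arrays and PLIN1 on 5. ADIPOQ was dim on all 9 arrays (2.55 to 2.89, 3.09 to 3.78 and 2.93 to 3.27). Of the 6 adipocyte markers, 3 (FABP4, PLIN1 and ADIPOQ) read lower on every array of A than on any other and 0 higher. The 10 stromal markers lay at 16.23 to 16.29, 16.36 to 16.42 and 16.25 to 16.31. Singly, 4 of the 10 read lower on every array of A than on any other and 2 higher. Over all genes these shares were 15.9% and 17.4%. Of the mesothelial list 1 of 5 was measured, MSLN, and it was at the floor on all 9 arrays. The part of these markers in the values of DISP1, GLI3, SMO and SUFU was not tested, and fewer cells of a type and less RNA per cell cannot be told apart in such samples.

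The replicate 3 arrays carry differently worded titles and were compared with replicates 1 and 2 with title group in the fit, since they hold 1 array of each group. Limma called 74 probe sets higher and 34 lower on the replicate 3 arrays, which is 0.281% of all, and 0 of the 8 genes. In 0 of the 8 genes did replicate 3 lie wholly above the rest, as in 5.07% of all and 7.63% of the brighter genes, or wholly below, as in 4.10% and 6.19%. PTCH1 had the smallest p of the 8, with 5.51 ± 0.15 (SD, n = 6) on replicates 1 and 2 and 5.85 ± 0.25 (SD, n = 3) on replicate 3, a difference of 0.34 with an unadjusted p = 0.0420 and an adjusted p = 0.463 from limma. At an unadjusted p under 0.05 the share was 10.3% over all probe sets and 14.5% over all 13009 genes, beside 1 of the 8. DISP1 differed by 1.46, with a standard error of 0.79 and an adjusted p = 0.567 in limma, and the 6 arrays of replicates 1 and 2 lay on both sides of its gap while the 3 of replicate 3 lay on the high side.

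Of 52 other genes of the pathway, 43 were measured, and 11 were at the array floor on all 9 arrays. Between titles limma called 0 of the 43 in each comparison, with median log2 fold changes of 0.06, 0.02 and 0.09, and 0, 1 and 5 of them had an unadjusted p under 0.05, beside 2%, 2.65% and 12.8% of all 13009 genes. Among ligands and proteins of ligand release, the ligands SHH and IHH were at the floor on all 9 arrays (highest values 1.66 and 2.03), as were DISP2 and DISP3, relatives of DISP1. The ligand DHH was not analysed here, and all 8 measured genes of this group were dim on every array. SHH, IHH, DISP2, DISP3, CDON and KIF7 were named after their values were seen. Of 4 measured co-receptors and receptors, CDON, a co-receptor for the ligands, read 6.66 to 7.66 and was above 4 on all 9 arrays. In the cilium group KIF7, a motor that organizes the cilium tip and regulates GLI proteins, read 4.55 to 5.14 in A, 5.35 to 6.06 in B and 5.02 to 6.09 in C. SPOP, an adaptor that marks GLI proteins for breakdown in mammals, read 4.02, 4.11 and 5.40 in A, 3.25, 3.39 and 4.46 in B and 3.77, 4.11 and 4.64 in C, with the last array of each set the highest.

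Of 14 measured targets known from other tissues or species, 3 read lower on every array of A than on any other and 4 higher, beside 15.9% and 17.4% of all genes. Over the brighter genes these shares were 24.7% and 26.8%. Of the 3, FOXF1 was at the floor on all 9 arrays and GREM1 dim on all 9, and CCND2 read 10.35 to 10.46 in A against 10.48 to 10.67. Of the 4 higher, CCND1 read 10.40 to 10.55 in A against 9.43 to 10.10 on the other arrays, and FOXC1 was dim on all 9. The 3 lower targets, CCND1 and FOXC1 were named after their values were seen. MYCN, a growth-promoting transcription factor, read 10.54 to 10.58 in A and 8.12 to 8.48 on the other 6 arrays, a gap of 2.06 in the direction opposite to DISP1. FOXC2, a forkhead factor of mesenchyme, read 5.99, 5.86 and 5.37 in A, 4.35, 4.35 and 4.09 in B and 3.72, 3.90 and 3.36 in C, so that all 3 sets were apart. By title, MYCN differed by -1.57 (adjusted p = 0.492 from limma) and FOXC2 by -1.25 (adjusted p = 0.504) between DMIOA+20(S) and control. On the replicate 3 arrays SNAI1, a repressor of epithelial genes, was lower, at 8.35 ± 0.10 (SD, n = 3) against 9.03 ± 0.08 (SD, n = 6), which is a difference of -0.67 with a standard error of 0.07 and an adjusted p = 0.0122 in limma. BCL2, which protects cells from apoptosis, was higher, at 8.73 ± 0.09 (SD, n = 3) against 8.13 ± 0.08 (SD, n = 6), which is a difference of 0.61 with a standard error of 0.08 and an adjusted p = 0.0323 in limma. Both differences are under 2-fold and so were not counted as calls, and FOXC2 differed by -1.34 with an adjusted p = 0.182. At an unadjusted p under 0.05 from limma this comparison held 4 of the 43 other pathway genes (9.3%). The share over all 13009 genes was higher, at 14.5%. With arrays left out one at a time the adjusted p rose above 0.05 for SNAI1 in 5 of 9 cases (at most 0.139) and for BCL2 in 8 of 9 (at most 0.273).

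**Figure D4:**
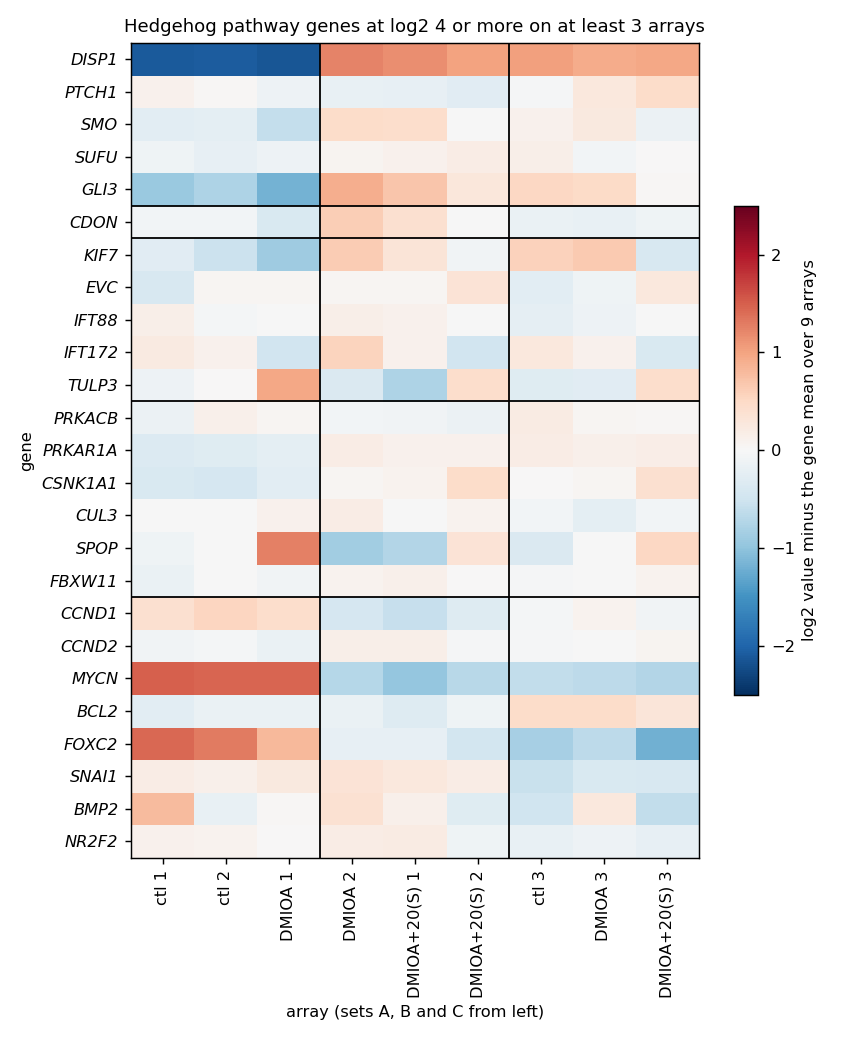
Log2 value minus the gene's own mean over the 9 arrays (colour) for the 25 pathway genes that reached log2 4 on 3 or more arrays (rows, with lines between the 5 members, co-receptors, cilium and relay genes, GLI processing and targets) on each array (columns, with lines between sets A, B and C). DISP1 and GLI3 are low and MYCN and FOXC2 high in the first 3 columns, and BCL2 and SNAI1 shift in the last 3.

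A range of at least 2 on the log2 scale was reached by DISP1 and GLI3 alone among the 8 genes (3.37 and 2.09), and for these the genes with the closest course were looked up over all 13008 others, as the root mean square difference of values centred on each gene's mean over 9 arrays. Closest to DISP1 were SLC25A29, a mitochondrial carrier of basic amino acids (0.09), BAMBI, a decoy receptor that dampens TGF-beta signalling (0.11), and APOA1, the main protein of high-density lipoprotein (0.13). SLC25A29 read 7.44 to 7.57 in A and 10.54 to 10.77 elsewhere. In all 14 genes lay within 0.25 of DISP1. Closest to GLI3 were CENPV (0.15), ACVR2A, a receptor for activins (0.15), and MICALL2 (0.16), and 61 genes lay within 0.25.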

How the data were processed

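RNA of hen preadipocytes was hybridized to Affymetrix chicken arrays. The authors quantified the scans and applied GCRMA in FlexArray (its version is not given in the sources used here). The deposited values are log2 intensities per probe set after background correction and normalization across arrays. They were used as deposited. After 96 control probe sets were left out, 38439 remained, of which the platform annotation gives 1 symbol for 27168, several for 177 and none for 11094. Of those with 1 symbol, 26853 matched a current gene by its identifier and 0 symbols changed.

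Titles alone gave the groups. The models (lmFit and eBayes of limma 3.58.1, R 4.3.3) ran over 9 arrays with group as the only term and no replicate block, and a second fit added a term for the replicate 3 arrays. P-values were adjusted by Benjamini-Hochberg over all probe sets, a call also needed a 2-fold difference, and the steps were tested on simulated data. The simulated noise had the spread within sets A, B and C and not that within titles. It therefore cannot show what size of difference between titles would be found. The methods name a t-test, which was run as an alternative beside other normalizations, filters, fits and arrays left out. Names were matched to RefSeq and no coordinates were used. Genes named are the 8 members, other pathway genes that pass a test or span at least 2 log2 units, and the 3 genes closest in course to a member of such range. Others were named after their values were seen. Members and lists were chosen with earlier results of these data known. Figures were drawn with Python 3.11.15 and matplotlib 3.10.9.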

Additional observations from a re-analysis of the deposited data

How the results depend on the processing

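Under the alternatives tried, 0 of 636 values of the 8 genes were called, each gene being taken by its chosen probe set or the mean of its probe sets. The sign was opposite in 33 values with an array left out and in 9 others. In the comparison of DMIOA with control these were PTCH1 at 0.0029 when a gene's probe sets were averaged (gene means) and HHIP at -0.18 with replicates 1 and 2 only. For DMIOA+20(S) against DMIOA they were PTCH1 at -0.0078 with median-centred arrays, -0.04 with gene means and -0.091 with replicates 1 and 2 only, and HHIP at 0.12 with the latter. For DMIOA+20(S) against control they were HHIP at -0.040 with gene means and -0.066 with replicates 1 and 2 only, and for replicate 3 against the rest SUFU at -0.024 with gene means.

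With arrays left out one at a time, the differences of DMIOA from control ranged from -0.024 to 0.14 for GLI1, -0.19 to 0.027 for PTCH1, -0.087 to 0.39 for HHIP, -0.048 to 0.48 for SMO and -0.064 to 0.12 for SUFU. Those of DMIOA+20(S) from DMIOA ranged from -0.085 to 0.10 for GLI1, -0.023 to 0.28 for GLI2, -0.35 to 0.69 for GLI3, -0.23 to 0.15 for PTCH1, -0.36 to 0.11 for HHIP, -0.25 to 0.28 for SMO and -0.044 to 1.64 for DISP1. Those of DMIOA+20(S) from control ranged from -0.039 to 0.16 for GLI1, -0.25 to 0.052 for GLI2, -0.28 to 0.090 for PTCH1 and -0.072 to 0.20 for HHIP. For replicate 3 against the rest they ranged from -0.087 to 0.18 for GLI1, -0.15 to 0.33 for HHIP, -0.066 to 0.33 for SMO and -0.091 to 0.13 for SUFU.

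Of all probe sets, the methods' t-test before adjustment with a 2-fold difference called 1 for DMIOA against control, 5 for DMIOA+20(S) against DMIOA, 221 for DMIOA+20(S) against control and 328 for replicate 3, and after adjustment 0, 0, 0 and 46. The 2 probe sets called by limma for DMIOA+20(S) against control became 1 under quantile normalization and 0 under the filter on dim probe sets, trended and robust variances, gene means, the replicate block, a term for the replicate 3 arrays, replicates 1 and 2 only, the 6 arrays compared, and with any 1 array left out. The 108 of replicate 3 became 32 to 117 with an array left out, 32 being without DMIOA 3. Counts over gene means are of genes and not of probe sets. For replicate 3, limma called 51 of 13009 genes by gene means, beside 69 by the brightest probe set of each in the main fit. For DMIOA+20(S) against control 0 genes were called either way. BCL2 had an adjusted p = 0.0648 with trended and robust variances and SNAI1 one of 0.204 over gene means. The cause was not tested.

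With the replicate block, 0 probe sets were called for DMIOA against control, 0 for DMIOA+20(S) against DMIOA and 0 for DMIOA+20(S) against control, and DISP1 in the last had an adjusted p = 0.414. The hen behind each array is not given in the sources used here, and the numbers were not taken to pair arrays. Deviations from title means of arrays with one number correlated between -0.56 and 0.70, and 4 of 9 arrays correlated best with their own number. Arrays of one title lie in different sets, so these deviations also hold the differences between sets. They cannot decide whether the numbers pair arrays. Among the 3 replicate 3 arrays these correlations ran from 0.08 to 0.70, and the arrays form set C. GCRMA limits what dim genes (GLI1, GLI2 and HHIP) can show, and every comparison of groups rests on the titles as deposited.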

Other observations

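SPOP and TULP3, an adaptor of ciliary membrane traffic, were highest within each set on the arrays where GLI3 and SMO were lowest. The same order held for 9.31% of all genes and 11.9% of the brighter genes. Among other pathway genes it was also seen in EVC2, KIF3A, CSNK1A1 and SHH, the last at the array floor. The markers PPARG, LPL, PECAM1 and LUM had it too, so it was not particular to SPOP and TULP3. TULP3 read 6.91 on DMIOA 1, 6.38 on DMIOA+20(S) 2 and 6.39 on DMIOA+20(S) 3, against 5.18 to 5.95 on the other 6 arrays. SPOP, TULP3 and the other genes named here with this order were singled out after their values were seen. Taken over the probe sets with log2 4 or more on at least 3 arrays, deviations of these 3 arrays from the mean of their own set correlated at 0.70, 0.72 and 0.78, a description over probe sets that are not independent of each other. The 3 arrays were picked from these same values, and no other choice of arrays was compared. The titles put these arrays in 2 groups and under the replicate numbers 1, 2 and 3.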
